A study of Mus musculus with 2 samples.

Results

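The miR-99/100 and miR-125 families were followed in small RNA sequencing of J1 mouse embryonic stem cells. They comprise 6 of the 1174 miRNA hairpin genes of the reference: Mir99a, Mir99b, Mir100, Mir125a, Mir125b-1 and Mir125b-2. These 6 were listed by name because each lies beside a let-7 gene, on 3 loci in all. Their reads are the tags, distinct sequences with a read count, that match a listed hairpin exactly. At 18 to 26 nt the DMSO list had 47 such tags with 7832 reads, and at 15 to 17 nt the SC1 list had 7 with 14 reads.

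J1 is an established line of strain 129S4/SvJae, grown here on gelatin with 1000 U/mL LIF. Cells of both groups had 6 h of treatment, either with 1 µM SC1 (pluripotin, a small molecule that promotes self-renewal) or with DMSO, its solvent. Only 1 library was sequenced per condition. The spread between replicates is therefore unknown, no test was made, and intervals are exact (Clopper-Pearson) 95% binomial intervals that cover counting error only. The DMSO list held 18870345 reads in 910008 tags with lengths of 18 to 44 nt. In SC1 there were 1275599 reads in 88867 tags, all between 3 and 17 nt long. The SC1 list thus holds no tag of the length of a mature miRNA, and whether it is only the short part of that library is not given in the labels. The lists share no tag length, so no member can be compared between SC1 and DMSO. Levels are given as RPM, the reads per 1000000 of the 2167151 DMSO reads assigned to mature miRNAs, where 1 read is 0.461 RPM. Of the lists fixed to check the cell label, the 6 embryonic stem cell hairpins (Mir290a to Mir295) all had reads and took 28.8% of these, the fibroblast list 0.181% with Mir214 at 0, and the neural list 0.241%.

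A miRNA hairpin is cut into a short duplex, and the strand loaded into Argonaute recognises target mRNAs mainly through its seed, bases 2 to 8 from the 5′ end. miR-125 is the mammalian counterpart of worm lin-4, and miR-99/100 belong to an ancient family related to miR-10. Both families sit with let-7 in clusters that arose by duplication and can be made as parts of a shared primary transcript. In embryonic stem cells LIN28 is known to bind the loop of let-7 precursors and to block their maturation, while let-7 and miR-125 are both known to repress Lin28a.

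The mature 5p sequences show which members share a seed and which bases tell them apart. They are from RefSeq (GRCm38.p6), 5′ to 3′, with the seed in capitals:
miR-99a-5p: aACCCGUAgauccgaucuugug
miR-100-5p: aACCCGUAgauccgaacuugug
miR-99b-5p: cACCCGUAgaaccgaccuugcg
miR-125a-5p: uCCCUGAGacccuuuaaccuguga
miR-125b-5p: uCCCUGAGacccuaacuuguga
miR-351-5p: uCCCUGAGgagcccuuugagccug

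miR-99a-5p, miR-100-5p and miR-99b-5p are the 3 mature miRNAs of the reference with the seed ACCCGUA. Counting positions from 1 at the 5′ end, miR-100-5p differs from miR-99a-5p by U16A, so their first 15 bases are the same and a 15 nt tag cannot tell them apart. miR-99b-5p differs from miR-99a-5p by A1C, U11A, U16C and U21C. The seed CCCUGAG is shared by 5 mature miRNAs, miR-125a-5p, miR-125b-5p, miR-351-5p, miR-6367 and miR-6394. miR-125a-5p and miR-125b-5p have their first 13 bases in common. miR-125b-5p is made by both Mir125b-1 and Mir125b-2, so its reads carry no locus.

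Among the 3p sequences, miR-99a-3p and miR-99b-3p share the seed AAGCUCG and their first 9 bases, and those of Mir125b-1 and Mir125b-2 differ and can name the gene of origin. They are written in the same way:
miR-99a-3p: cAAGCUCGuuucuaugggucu
miR-100-3p: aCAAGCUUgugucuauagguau
miR-99b-3p: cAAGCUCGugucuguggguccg
miR-125a-3p: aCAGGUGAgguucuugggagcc
miR-125b-1-3p: aCGGGUUAggcucuugggagcu
miR-125b-2-3p: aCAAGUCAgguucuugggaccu

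The loci differ in their spacing. On chromosome 17 of GRCm38, Mir99b (17830188 to 17830257), Mirlet7e (17830352 to 17830444) and Mir125a (17830812 to 17830879) lie on the plus strand within Spaca6, which encodes a sperm protein needed for fertilisation. Mir99b and Mirlet7e are intronic and Mir125a overlaps an annotated exon of Spaca6, whose transcript also holds all of the miR-125a-5p tags but none of the miR-125a-3p tags. The starts of Mir99b and Mir125a are 624 nt apart. On chromosome 9, Mir100 (41531425 to 41531504), Mirlet7a-2 (41536716 to 41536811) and Mir125b-1 (41581926 to 41582002) lie in an intron of the non-coding host gene 3110039I08Rik, called Mir100hg in RefSeq, and Mir125b-1 starts 50501 nt after Mir100. They are also intronic to Gm49317, and Mir125b-1 overlaps an exon of Gm28119, annotated as a sense intronic RNA, which also holds the tags of miR-125b-5p and miR-125b-1-3p. On chromosome 16, Mir99a (77598936 to 77599000), Mirlet7c-1 (77599657 to 77599750) and Mir125b-2 (77646273 to 77646343) lie in an intron of the non-coding host gene Mir99ahg, with 47337 nt between the starts of Mir99a and Mir125b-2, and Mir125b-2 also overlaps an exon of C130023A14Rik.

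**Figure D1:**
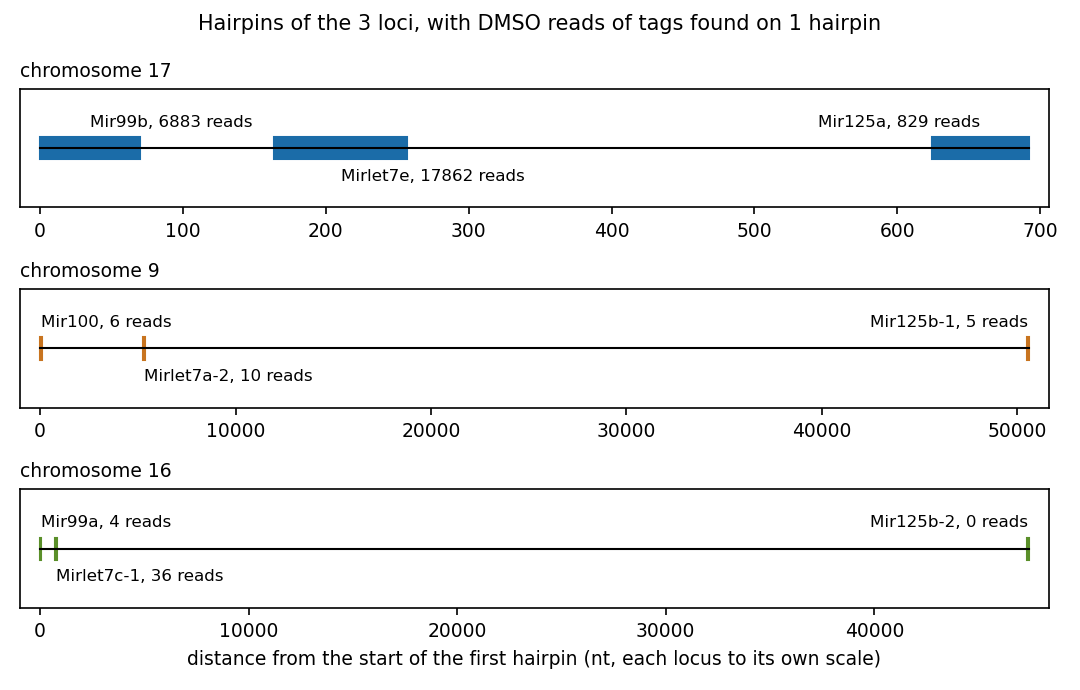
Hairpins of the 3 loci drawn as boxes against the distance in nt from the start of the first hairpin, each locus to its own scale, with the DMSO reads of tags that match a single hairpin. The chromosome 17 hairpins span less than 1 kb and carry 829 to 17862 such reads each, while the hairpins of chromosomes 9 and 16 carry 0 to 36. Tags of let-7c-5p, let-7a-5p and miR-125b-5p mostly match several hairpins and so are left out of this count. In all, 61008 reads match Mirlet7c-1 and 34052 match Mirlet7a-2, but nearly all of these also match other hairpins. The let-7 level of these 2 hairpins therefore cannot be told from the counts drawn.

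Nearly all reads of the miR-99/100 and miR-125 families in the DMSO library came from chromosome 17. Mir99b and Mir125a together had 7712 of the 7831 reads assigned to arms of the 6 members, 98.5% (interval 98.2 to 98.7), when miR-125b-5p was split equally between its genes. The chromosome 9 members Mir100 and Mir125b-1 had 63 reads (0.804%) and the chromosome 16 members Mir99a and Mir125b-2 had 56 (0.715%). The 6 members took 0.361% of the mature miRNA reads (interval 0.353 to 0.369). In bulk RNA, fewer cells with a miRNA and less of it per cell cannot be told apart.

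Within the seed family of miR-99, miR-99b-5p stood far above the other members. It had 6188 reads, 2855 RPM (interval 2785 to 2927), rank 51 of 481 mature miRNAs. miR-100-5p had 6 reads, 2.77 RPM (interval 1.02 to 6.03), and miR-99a-5p had 4 reads, 1.85 RPM (interval 0.503 to 4.73). miR-99b-5p therefore had 1031 times the reads of miR-100-5p (interval 474 to 2811) and 1547 times those of miR-99a-5p (interval 604 to 5680), and made up 99.8% of the reads with that seed. The ratio of miR-100-5p to miR-99a-5p was 1.5 (interval 0.356 to 7.23), so their order is not resolved at this depth. The 6 reads of miR-100-5p were 4 of aacccgtagatccgaacttgtg and 2 with a further templated c, and the 4 of miR-99a-5p were 2 of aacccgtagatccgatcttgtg and 2 lacking its last base.

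The miR-125 seed family was lower and less uneven. miR-125a-5p had 785 reads, 362 RPM (interval 337 to 388), and miR-125b-5p had 106 reads, 48.9 RPM (interval 40.0 to 59.2), over both of its genes. The ratio was 7.41 (interval 6.04 to 9.16). From only the most abundant tag of each, miR-125a-5p was at 156 RPM and miR-125b-5p at 64.9 RPM. miR-351-5p, a relative by seed, had 36 reads, 16.6 RPM (interval 11.6 to 23.0), so miR-125a-5p made up 84.7% of the reads with the seed CCCUGAG (interval 82.2 to 86.9). The hairpins Mir6367 and Mir6394 had 0 reads. The 3 miR-99 family members together had 6.96 times the 5p reads of the miR-125 pair (interval 6.48 to 7.47). For comparison, miR-10a-5p, the related miRNA whose seed ACCCUGU is not that of miR-99, was at 481 RPM and miR-10b-5p at 6.92 RPM.

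**Figure D2:**
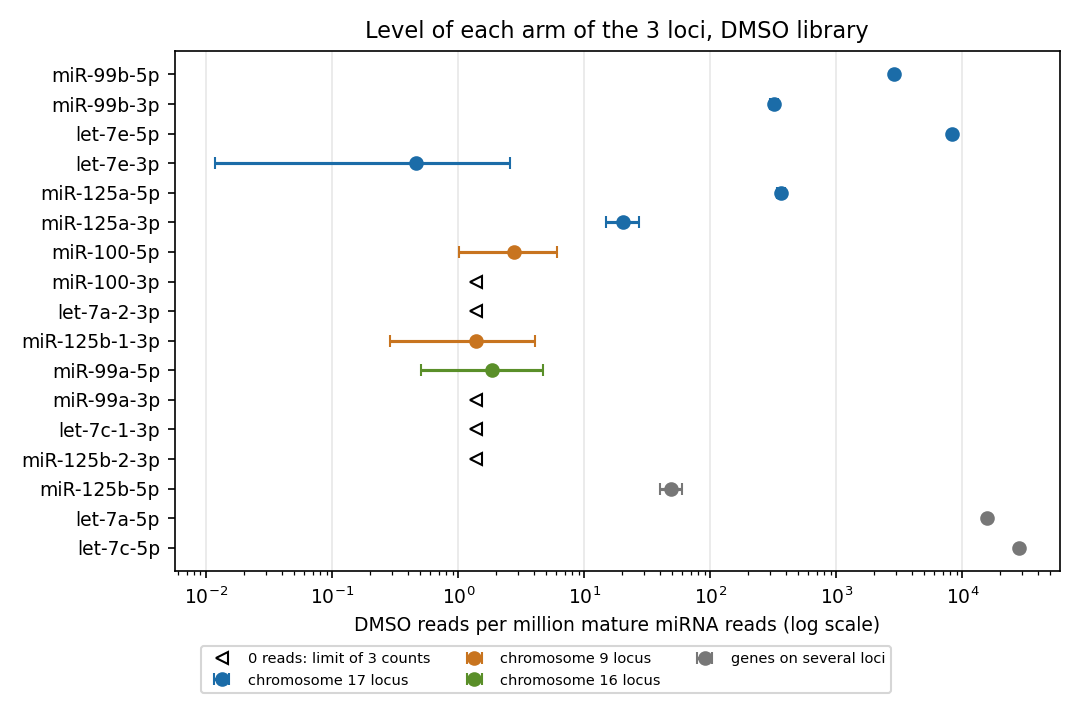
DMSO level of each arm in RPM on a log axis, with exact 95% intervals of counting error. Open triangles mark arms with 0 reads at the limit of 3 counts, and grey points mark mature miRNAs with genes on more than 1 locus. Arms of the chromosome 17 locus other than let-7e-3p lie at 20.3 RPM or above, while arms found on chromosome 9 or 16 alone lie at 2.77 RPM or below.

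The reads of the chromosome 9 and 16 loci could be divided only by the few tags that match a single hairpin. miR-125b-1-3p, the 3p arm of the chromosome 9 gene, had 3 reads, and miR-125b-2-3p had 0, which allows up to 1.38 RPM. The remaining 2 reads found on Mir125b-1 alone were miR-125b-5p tags with a final t that the hairpin encodes, and an untemplated t added to a miR-125b-5p from Mir125b-2 would look the same. Mir125b-1 thus had 5 reads of its own and Mir125b-2 had 0, and the share of miR-125b-5p from each gene was not resolved.

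Whether let-7 follows the order of its neighbours could not be settled. Of the let-7 names of the 3 loci, let-7c-5p had 28192 RPM. let-7a-5p followed with 15749 RPM, and let-7e-5p had 8242 RPM (interval 8122 to 8363). The let-7 name with the most reads is thus encoded beside miR-99a, whose 5p arm had 4 reads, not resolved from the 6 of miR-100-5p. However, let-7c-5p is also made by Mirlet7c-2 and let-7a-5p by Mirlet7a-1, which are not clustered with miR-99 or miR-125, whereas let-7e-5p has a single gene. The 3p arms that could divide them, let-7c-1-3p and let-7a-2-3p, had 0 reads each, which allows up to 1.38 RPM. let-7e-3p had 1 read although let-7e-5p had 17861, so a 3p count of 0 says little about the gene. Tags on a single hairpin gave 17862 reads for Mirlet7e, 36 for Mirlet7c-1 against 120 for Mirlet7c-2, and 10 for Mirlet7a-2 against 111 for Mirlet7a-1. Of these, 111 reads of Mirlet7c-2 and 101 of Mirlet7a-1 were 24 nt tags with a final t that the clustered gene does not encode. An untemplated t added to the shared 23 nt form would look the same. Likewise, 8 of the 10 reads of Mirlet7a-2 had a final a that could have been added. These counts therefore do not settle the gene of origin of let-7c-5p or let-7a-5p.

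With shared names split equally, the chromosome 17 locus held 34.9% of the reads of the 3 loci (interval 34.6 to 35.3), chromosome 16 held 41.7% and chromosome 9 held 23.3%. With tags on a single hairpin alone, the chromosome 17 share was 99.8%. That count leaves out nearly all reads of let-7c-5p, let-7a-5p and miR-125b-5p, which have several genes. The split rests almost wholly on let-7, which made up 99.8% of the chromosome 16 reads and 99.6% of the chromosome 9 reads, but 69.8% of those of chromosome 17. Whether the let-7 reads of chromosomes 9 and 16 are as few as those of miR-99a and miR-100 cannot be told from these lists.

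The 3 hairpins of the chromosome 17 locus had unequal numbers of mature miRNA reads. let-7e-5p had 2.89 times the reads of miR-99b-5p (interval 2.80 to 2.97) and 22.8 times those of miR-125a-5p (interval 21.2 to 24.5). miR-99b-5p had 7.88 times the reads of miR-125a-5p (interval 7.32 to 8.50). Because all of these miRNAs have a single gene, the order let-7e, miR-99b, miR-125a holds within the locus for reads of this library.

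The hairpins of the chromosome 17 locus are printed because most reads come from them, 5′ to 3′ as DNA from GENCODE M21, with the RefSeq mature arms in capitals:
Mir99b: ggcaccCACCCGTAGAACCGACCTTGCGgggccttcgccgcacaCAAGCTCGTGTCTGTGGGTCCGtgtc
Mirlet7e: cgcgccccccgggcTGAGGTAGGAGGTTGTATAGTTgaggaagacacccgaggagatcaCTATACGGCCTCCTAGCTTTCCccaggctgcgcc
Mir125a: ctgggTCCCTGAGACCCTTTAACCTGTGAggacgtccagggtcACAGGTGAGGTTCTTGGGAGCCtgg

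The motif GGAG, known from LIN28 binding to let-7 precursors, was looked for between the 2 arms of each hairpin on the RNA strand. Mirlet7a-2, Mirlet7c-1 and Mirlet7e held it, and none of the 6 members did. It was found in 54 of 651 hairpins with both arms in RefSeq (8.29%). The letters are a description of the sequence and do not show binding.

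The 5p arm was the more abundant in all members with reads on both arms. Mir99b had 6188 reads on its 5p arm and 695 on its 3p arm, so the 5p share was 89.9% (interval 89.2 to 90.6). Mir125a had 785 and 44 reads, a 5p share of 94.7% (interval 92.9 to 96.1). miR-125b-5p had 106 reads against 3 from the 3p arms of its 2 genes, a share of 97.2% (interval 92.2 to 99.4). Mirlet7e, between Mir99b and Mir125a, had 1 read in 17862 on its 3p arm. Among the 168 hairpins with 500 or more reads, 81 (48.2%) had more reads on the 5p arm, and the median share of the leading arm was 99.1% (quartiles 86.8 and 100). Mir99b and Mir125a thus both kept a larger part of their reads on the second arm than the median hairpin did.

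miR-99b-3p was the most abundant 3p arm of the group, at 321 RPM (interval 297 to 345). Its level was close to that of miR-125a-5p, and 15.8 times that of miR-125a-3p (20.3 RPM, interval of the ratio 11.6 to 21.9). miR-99a-3p and miR-100-3p had 0 reads, which allows up to 1.38 RPM each. With 4 and 6 reads on their 5p arms, the intervals of the 5p share reach down to 39.8% for Mir99a and 54.1% for Mir100, so neither can be set against that of Mir99b.

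The 5′ ends of the members were uniform. The main start held 99.1% of the reads of miR-99b-5p, 99.7% of miR-99b-3p, 99.5% of miR-125a-5p, 99.1% of miR-125b-5p and 90.9% of the 44 reads of miR-125a-3p. It was the RefSeq start in all of them. Over 172 mature miRNAs with 500 or more reads, the median share at the main start was 98.7% (quartiles 94.6 and 99.6). The seeds printed above are therefore those of nearly all reads. A start 1 base later, which would move the seed by 1 base, was found in 51 reads of miR-99b-5p (0.824%), in 4 of the 44 reads of miR-125a-3p (9.09%) and in 1 of the 106 reads of miR-125b-5p (0.943%).

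By the share at its commonest length, miR-125a-5p was the most spread over lengths of the mature miRNAs of 500 reads or more. Its commonest length, 20 nt, held 27.6% of its 785 reads, and none of the other miRNAs among the 172 had a lower share at its commonest length (median 65.9%, quartiles 48.1 and 80.5). The tags that carry this spread share a start and differ in where they end:
miR-125a-5p, 217 reads: tccctgagaccctttaacct
miR-125a-5p, 74 reads: tccctgagaccctttaacctg
miR-125a-5p, 164 reads: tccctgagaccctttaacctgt
miR-125a-5p, 184 reads: tccctgagaccctttaacctgtg
miR-125a-5p, 109 reads: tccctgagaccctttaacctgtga

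The RefSeq form of 24 nt was thus 13.9% of the reads of miR-125a-5p. By length there were 217 reads at 20 nt, 75 at 21 nt, 166 at 22 nt and 184 at 23 nt. The dip at 21 nt is plain in these counts, but whether 20, 22 and 23 nt differ was not tested. A commonest length of 20 nt or less was found for 18 of the 172 miRNAs (10.5%). These tags also match the Spaca6 exon, and 99.5% of the reads began at the same base. miR-125b-5p, which has the same first 13 bases, was by contrast 22 nt long in 84.9% of reads, with 90 of its 106 reads being the RefSeq sequence.

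miR-99b-5p was 22 nt in 72.5% and 21 nt in 25.2% of its reads. The RefSeq sequence had 4488 reads and the form without its last base had 1520. miR-99b-3p was 22 nt in 49.5% and 23 nt in 32.1%, and its 23 nt form caagctcgtgtctgtgggtccgt, with 223 reads, carries a further base that is encoded by the hairpin. let-7e-5p had 84.3% of its reads at 22 nt.

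**Figure D3:**
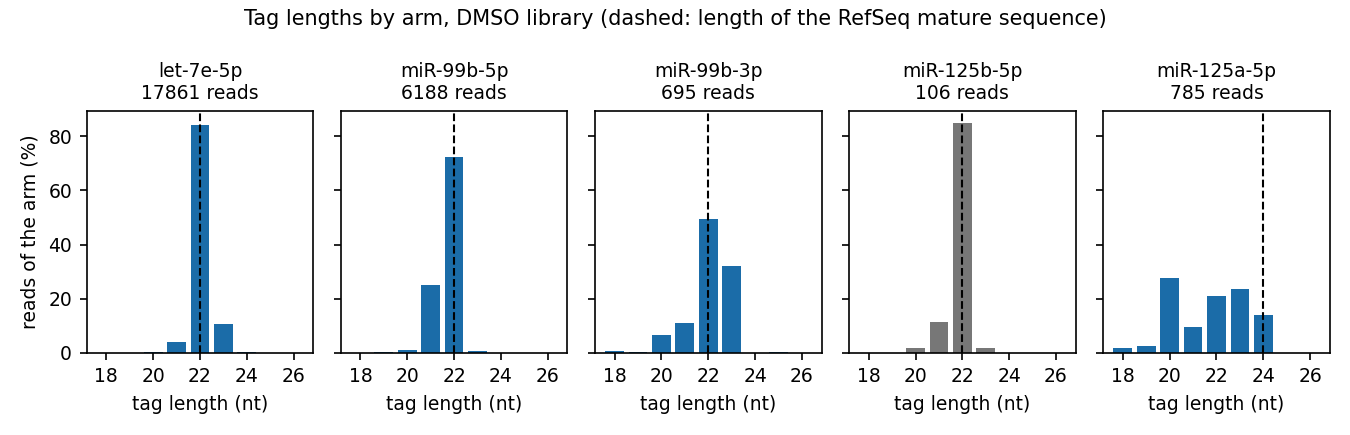
Share of the reads of an arm (%) at each tag length (nt) in the DMSO library, with the length of the RefSeq mature sequence dashed. let-7e-5p and miR-125b-5p have over 80% of their reads at 22 nt, whereas miR-125a-5p is spread from 18 to 24 nt with 27.6% at 20 nt and 13.9% at its RefSeq length of 24 nt.

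Untemplated bases at the 3′ end were counted as a run of 1 to 3 A, or of 1 to 3 T, that follows the longest stretch matching the hairpin. Such tails are known to be added to miRNAs by nucleotidyl transferases. miR-99b-5p carried them in 1140 of 7357 reads, or 15.5% (interval 14.7 to 16.3), with A in 9.95% and T in 5.55%. Its commonest tail was a single A, with 552 reads, and a single T had 395. miR-99b-3p had tails in 12.8% of 875 reads (interval 10.7 to 15.2), with A in 9.71% and T in 3.09%. A T that extends its 22 nt form counts as encoded and not as a tail. Tails of other or mixed bases, not counted here, had a further 70 reads of miR-99b-3p. let-7e-5p had tails in 14.2% (interval 13.7 to 14.6), but with T (9.48%) ahead of A (4.68%).

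miR-125a-5p, from the same locus, had tails in 16 of 799 reads, 2.00% (interval 1.15 to 3.23), below the intervals of miR-99b-5p and let-7e-5p. miR-125a-3p, from the same hairpin, had tails in 7 of 47 reads, 14.9% (interval 6.20 to 28.3). Within this hairpin, the low share was thus seen for the 5p arm only, and the value of the 3p arm rests on 47 reads. Shares below those of miR-99b-5p and let-7e-5p were also seen for let-7a-5p (3.43%, interval 3.25 to 3.61) and let-7c-5p (4.13%, interval 3.98 to 4.29). miR-125b-5p had 6 A tails and 0 T tails in 113 reads, 5.31% (interval 1.97 to 11.2). Over 172 mature miRNAs the median was 5.22% (quartiles 2.40 and 12.8). miR-99b-5p was above 80.2% of them and miR-125a-5p above 18.0%. An A or T that happens to be encoded is not counted, and this differs between sequences. A after the 23 nt form of miR-125a-5p is such a case, as is T after its 19 nt and 21 nt forms.

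**Figure D4:**
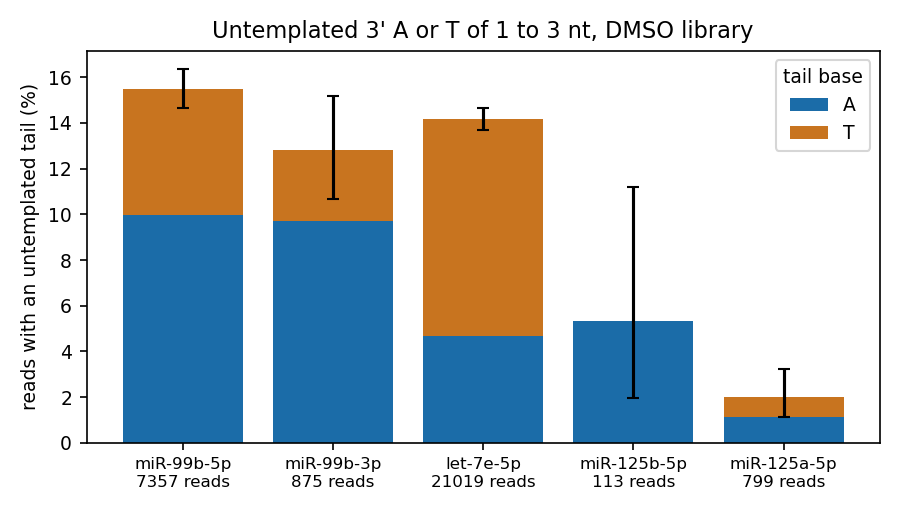
Share of reads (%) with an untemplated 3′ tail of 1 to 3 A or T in the DMSO library, stacked by base, with the exact 95% interval of the total. miR-99b-5p (15.5%) and let-7e-5p (14.2%) stand above miR-125a-5p (2.00%) although all come from the chromosome 17 locus, and A leads in miR-99b-5p while T leads in let-7e-5p. miR-125a-3p (14.9% of 47 reads) is not drawn.

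Single-base differences within the mature sequence were rare. Tags of 22 nt that differ from miR-99b-5p at a single position before the last had 33 reads, 0.713% of those of that length, and the most frequent of them, C3T, had 4. At the last position G22A had 103 reads, which is the same sequence as the 21 nt form with an added A. miR-125a-5p had 1 such read and miR-125b-5p 1. None of the members had antisense tags or tags over 26 nt in the DMSO list, and reversed tags matched their hairpins 0 times.

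In the SC1 list the members had 14 reads of 15 to 17 nt, 0.0266% of the 52697 short reads at miRNA starts (interval 0.0145 to 0.0446). All of them came from Mir99b and Mir125a. miR-99b-5p had 7 reads, 5 of cacccgtagaaccgacc and 2 of cacccgtagaaccgac. miR-99b-3p had 6 reads, among them 3 of caagctcgtgtctgtg, and miR-125a-5p had 1 read, tccctgagaccctttaa. The arms of Mir99a, Mir100, Mir125b-1 and Mir125b-2 had 0 reads, which allows up to 0.00569% each. These counts are of short tags alone and say nothing of the level of the mature miRNAs in SC1 cells.

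The 2 arms of Mir99b had almost equal numbers of short SC1 reads, 7 and 6, while in the DMSO list its 5p arm had 6188 reads against 695. At 18 nt, the DMSO length nearest to the SC1 list, miR-99b-5p had 4 reads and miR-99b-3p had 4, and miR-125a-5p had 13. The lists differ in condition and in length together, so the short reads cannot be read as an effect of SC1.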

How the data were processed

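Small RNA of J1 cells was sequenced in 1 DMSO and 1 SC1 library. The deposited values are raw read counts of distinct tags, not normalized, and the submitters' processing notes name mm9. Adapter trimming, length filter and aligner were not given in the sources used here. A line of the DMSO list that holds a total was left out.

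Tags were matched exactly and in sense to 1174 hairpins of GENCODE M21 (GRCm38), and coordinates are of that build. An arm was set by its most abundant DMSO tag, of at least 10 reads for miRNAs other than the members, let-7 and their seed relatives. Tags starting within 2 nt and ending within 4 nt were assigned to it, and tags fitting several miRNAs were split equally. SC1 tags of 15 to 17 nt needed the start only. All 6 members matched mature entries of the RefSeq table. Where no read was found the limit is 3 counts. Reads carried no molecular identifiers and so do not count independent molecules. No test was made. The assignment was tested on simulated data.

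Named were all member arms, the let-7 arms of the 3 loci, other let-7 by counts, and seed relatives with Mir10a and Mir10b. Members, lists and measures were chosen with earlier results of these data known. Alternatives were other minimum counts, lengths, arm ends, scalings, tail removal, distinct tags and shared tags left out. Computations used scipy 1.17.1 and numpy 2.4.6 under Python 3.11.15, with figures from matplotlib 3.10.9.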

Additional observations from a re-analysis of the deposited data

Results flagged for a closer look

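Short SC1 tags of 12 to 14 nt lie outside the lengths used above. Those that start at miR-99b-3p and match no other hairpin of the reference had 19 reads in 3 tags, above the limit of 3 counts: 2 reads at 12 nt, 10 at 13 nt and 7 at 14 nt. Reversed SC1 tags of these lengths, a measure of chance matches, had 0 reads on Mir99b and 6 on Mir99a. The same count for miR-99b-5p and miR-125a-5p was 0. miR-125a-5p has its first 13 bases in common with miR-125b-5p, so tags of 12 or 13 nt from its first base were left out by this rule. Its 0 therefore cannot be set against the count of miR-99b-3p at these lengths. Matches to transcripts other than miRNA hairpins were not tested.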

How the results depend on the processing

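No paired analysis was possible because DMSO and SC1 had 1 library each. The share of the 6 members in mature miRNA reads (0.361%) was 0.372% from the top tag per arm alone, 0.385% after removal of untemplated A or T, 0.380% with tags of 20 to 24 nt, 1.05% by distinct tags and 0.0415% of all reads of the list, which changes only the unit. The chromosome 17 share of the 3 loci (34.9%) was 32.1% with only the most abundant tags, 37.6% after removal of A or T and 99.8% with tags on 1 hairpin. The share of Mir99b and Mir125a in the members' reads (98.5%) was 98.1% with only the most abundant tags and 99.8% with tags on 1 hairpin. The short SC1 reads (14) were 7 at 17 nt alone. With only its most abundant tag, miR-125a-5p was at 156 RPM instead of 362. With tags of at least 10 reads, miR-99a-5p, miR-100-5p and miR-125b-1-3p were at 0. Of 164 other values, 135 were unchanged or within the counting interval and 29 were not. The 135 include arms with 0 reads in every setting, which stayed the same throughout. Among the 29 are levels scaled to all reads or counted by distinct tags, where the unit changes. The tally is therefore no measure of how robust the values are. In all 10 alternatives for levels, miR-99b-5p led miR-125a-5p, miR-125b-5p and then miR-99a-5p and miR-100-5p. Scaling to all reads and leaving out shared tags kept the counts of these arms, so they could not change the order. By distinct tags, miR-99b-5p had 11 against 10 for miR-125a-5p. The causes of the changes with processing were not tested. Depth limits every statement on Mir99a, Mir100 and the 3p arms of Mir125b-1 and Mir125b-2, which rest on 6 reads or fewer.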
